A study of Homo sapiens with 12 samples.

Results

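MiR-103a-3p, miR-107 and miR-103a-2-5p are microRNAs cut from hairpins that lie in introns of the pantothenate kinase genes PANK1, PANK2 and PANK3. They were taken by name (hsa-miR-103a-3p, hsa-miR-107 and hsa-miR-103a-2-5p), and all 3 names were listed for both cell lines, out of 1971 miRNA names listed for either line. The other 4 names of these hairpins or their antisense strand that were looked for (miR-103a-1-5p, miR-103a-5p, miR-103b and miR-107-5p) had no entry in the tables analysed here. The data are read counts from AQ-seq, a small RNA protocol designed to reduce ligation bias, for 2 human lines in which DICER was rescued with 1 of 3 forms. In HCT116, a colorectal carcinoma line, the forms were a DICER that lacks its dsRBD, the domain that binds double-stranded RNA (dsRBD deletion), a form labelled AA, and WT. The same 3 forms were used in HEK293T, an embryonic kidney line, with 2 libraries for each of the 6 groups and 12 altogether. What AA changes, what endogenous DICER the rescued cells still have, whether a rescued line is 1 clone, and how much of each DICER form was made stay unstated in the sources used here. The effect of a form therefore cannot be told apart from that of its amount. In such bulk RNA, fewer cells of a type and less RNA per cell cannot be told apart either.

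MicroRNA precursors are short hairpins, and DICER cuts off their loop to leave a duplex of a 5p and a 3p strand, of which usually 1 is kept in an Argonaute protein. The kept strand finds its targets mainly through its seed, the bases from position 2 to 8. MiR-103 and miR-107 are vertebrate miRNAs with 1 seed, known for a role in insulin sensitivity and for targeting the DICER1 mRNA itself. Their host genes encode pantothenate kinases, which catalyse the first committed step of coenzyme A synthesis, and PANK2 is the gene mutated in a form of neurodegeneration with iron in the brain.

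The mature sequences show how close the names are, and therefore what the counts can separate. They are RefSeq sequences on GRCh38.p14, written 5′ to 3′, with the seed in capitals. MiR-103a-1-5p is shown only for comparison.
miR-103a-3p: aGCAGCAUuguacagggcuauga
miR-107: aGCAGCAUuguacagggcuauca
miR-103a-2-5p: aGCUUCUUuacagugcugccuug
miR-103a-1-5p: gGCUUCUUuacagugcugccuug
Counted from 1 at the 5′ end, miR-107 differs from miR-103a-3p by G22C, so reads that lack the last 2 bases match both. MiR-103a-1-5p differs from miR-103a-2-5p by A1G. The sources used here do not say to which name a read was given when it matched more than 1, so these counts may share reads. Of the 1735 listed names with a RefSeq sequence, 2 carried the seed of miR-103a-3p, and these were miR-103a-3p and miR-107 themselves.

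The hairpins show where DICER cuts. Arms with a RefSeq mature name are in capitals.
MIR103A1: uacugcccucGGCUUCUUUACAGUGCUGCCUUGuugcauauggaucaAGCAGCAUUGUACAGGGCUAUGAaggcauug
MIR103A2: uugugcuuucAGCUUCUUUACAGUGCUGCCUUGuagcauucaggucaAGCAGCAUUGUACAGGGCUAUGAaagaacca
MIR107: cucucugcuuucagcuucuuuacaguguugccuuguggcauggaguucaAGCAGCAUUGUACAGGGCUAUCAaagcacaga
MIR103A1 lies at chr5:168560896-168560973 on the minus strand, MIR103A2 at chr20:3917494-3917571 on the plus strand and MIR107 at chr10:89592747-89592827 on the minus strand (GRCh38). In the GENCODE annotation MIR103A1 is in PANK3, MIR103A2 in PANK2 and MIR107 in PANK1. Each hairpin lies in intron 5 of its host's principal transcript, on the host's strand and in an exon of none of the host's transcripts. These transcripts have 7 exons each, and the introns are 2235, 1620 and 4419 bases long.

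The 3 hairpins resemble each other beyond the mature strand. Aligned over their full length, MIR103A2 and MIR107 were 85.2% identical, MIR103A1 and MIR103A2 80.8%, and MIR103A1 and MIR107 79.0%. Folded alone, they had minimum free energies of −31.0 (MIR103A1), −28.1 (MIR103A2) and −29.5 kcal/mol (MIR107), with 1 terminal loop of 4, 5 and 5 unpaired bases in the same order. The first base of the 3p strand was paired in all 3 predicted folds. The 3 bases just before it, on the loop side of the DICER cut, were UCA in each hairpin, as in 23 of 789 RefSeq human hairpins with a 3p name (2.92%). MiR-103a-3p can come from MIR103A1 or MIR103A2, and these counts do not separate the loci. MiR-103a-2-5p is the name of the MIR103A2 5p strand, so its ratio to miR-103a-3p sets 1 locus against both.

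The libraries held 824987 to 4498886 miRNA reads, and 30 spike-in RNAs took 0.272% to 3.54% of reads. A count of 0 would allow up to 3 reads, or 0.755 to 3.10 CPM, read counts relative to library size after scaling by TMM (a trimmed mean of fold changes) within a line. The lines differed in the sums of their marker sets. A set of 7 HCT116 markers summed to 358763 to 455393 CPM in HCT116 and 5351 to 15382 in HEK293T. A set of 5 HEK293T markers summed to 187039 to 326933 CPM in HEK293T and 25350 to 32113 in HCT116. Most of the HCT116 sum was miR-21-5p, with group means of 313207 to 365316 CPM. MiR-200b-3p, miR-200a-3p and miR-429 had group means of 303 to 2366 CPM in HCT116, and at most 8.34 in HEK293T. MiR-200c-3p separated the lines less, at 48.9 to 55.1 CPM in HCT116 and 18.6 to 31.3 in HEK293T. Above 3 reads in every library were 6 of the 7 markers in HCT116 and 3 in HEK293T. MiR-141-3p had 3 and 5 reads in the HCT116 deletion libraries. Of 13 miRNAs typical of blood, liver, muscle, neurons and endothelium, 12 were listed, summing to 1890 to 3783 CPM in HCT116 and 3313 to 6427 in HEK293T, and miR-206 of muscle was not listed. By group mean the largest in HEK293T was miR-9-5p (2926 to 5750 CPM), and in HCT116 it was miR-9-5p or miR-126-3p, depending on the form. Both samples are cell lines, and the source of these reads was not tested.

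With the dsRBD deletion, miR-103a-3p was far lower in HCT116 but still well detected. This strand, the one usually kept from both MIR103A hairpins, had 780 and 910 CPM in the deletion libraries (755 and 1569 reads), against 12316 and 13974 CPM in the WT libraries (48906 and 46387 reads). Both deletion libraries lay far below both WT libraries. The mean was 845 ± 92.1 CPM with the deletion and 13145 ± 1172 CPM with WT (SD, n = 2 each), 15.5-fold lower, a log2 fold change of −3.96 ± 0.14 (SE, edgeR adjusted p = 3.8e-09). In the same comparison 34.1% of the 795 tested names were lower and 82.5% had groups that did not overlap, so a fall by itself was common. Its size was less so, since 50 of the 795 names had a lower log2 fold change, and the median of all names was −0.01. By read number miR-103a-3p was 95th and 86th among the names in the deletion libraries, and 13th in both WT libraries.

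MiR-107, from the PANK1 intron, followed it closely in HCT116. It had 118 and 166 CPM with the deletion (114 and 286 reads), against 2328 and 2350 CPM with WT (9244 and 7801 reads). The groups did not overlap, and the mean of 142 ± 34.0 CPM against 2339 ± 15.6 CPM (SD, n = 2 each) was 16.3-fold lower (log2 −4.03 ± 0.17 SE, edgeR adjusted p = 1.3e-08). It took place 50 from the lowest among the 795 log2 fold changes, next to miR-103a-3p at place 51.

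In HEK293T both strands were again lower with the dsRBD deletion. MiR-103a-3p had 288 and 312 CPM with the deletion (326 and 407 reads), against 10381 and 9776 CPM with WT (29283 and 33424 reads). The libraries of the groups were far apart, with a log2 fold change of −5.07 ± 0.19 (SE, edgeR adjusted p = 9.9e-09), 33.6-fold lower. MiR-107 had 73.3 and 96.5 CPM with the deletion (83 and 126 reads), against 2227 and 2124 CPM with WT (6282 and 7263 reads). It was 25.5-fold lower (log2 −4.67 ± 0.21 SE, edgeR adjusted p = 2.1e-08), again with no overlap. Here 39.6% of the 626 tested names were lower, 89% had groups that did not overlap, and 36 and 45 names had a lower log2 fold change than miR-103a-3p and miR-107.

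**Figure D1:**
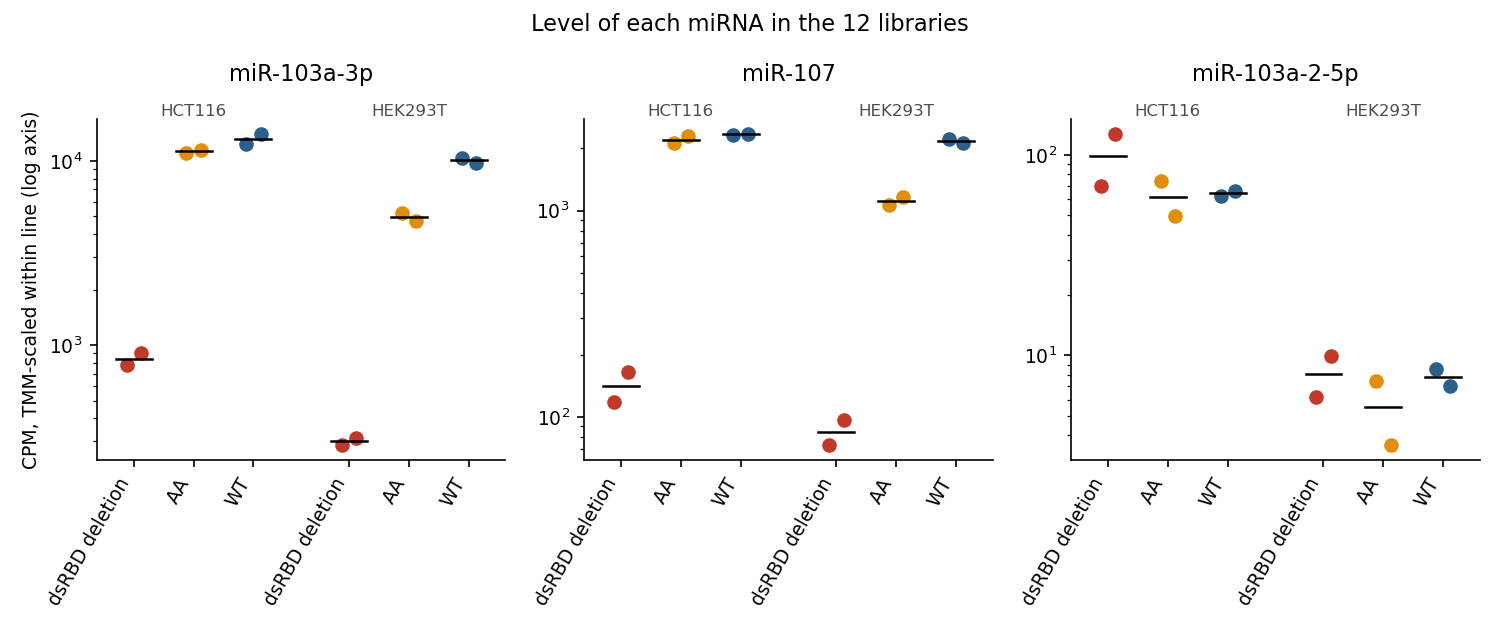
CPM (TMM-scaled within a line, log axis) of miR-103a-3p, miR-107 and miR-103a-2-5p in each of the 12 libraries, by line and DICER form; points are libraries and bars are the means of 2. With the deletion, miR-103a-3p sat at 780 and 910 CPM in HCT116 and 288 and 312 in HEK293T, against 9776 to 13974 CPM in the WT libraries of both lines, while miR-103a-2-5p showed no such gap.

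The AA form gave a smaller change, and the WT libraries it was set against are those used for the deletion. In HCT116, miR-103a-3p had 11009 and 11480 CPM with AA, against the WT values above, and the log2 fold change was −0.23 with a 95% interval of −0.49 to 0.04 (edgeR adjusted p = 0.353). The groups did not overlap, but neither did those of 53.8% of the names. MiR-107 had 2118 and 2301 CPM with AA, a log2 fold change of −0.08 with an interval of −0.41 to 0.25 (edgeR adjusted p = 0.819). Neither passed the test, in a comparison where 7.42% of the names did. This depended on the scale: on that of the spike-ins, where 272 names passed in place of 59, miR-103a-3p had −0.84 (edgeR adjusted p = 0.011) and miR-107 −0.69 (edgeR adjusted p = 0.034), near the median of all names at −0.63. With library totals as the only scaling, miR-107 had 0.094. Without AA replicate 1, 10 names passed, and without AA replicate 2, 23 did.

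In HEK293T both 3p-arm strands fell with AA. MiR-103a-3p had 5185 and 4737 CPM with AA, against 10381 and 9776 CPM with WT, 2.03-fold lower (log2 −1.02 ± 0.16 SE, edgeR adjusted p = 0.0013). MiR-107 had 1067 and 1167 CPM with AA, against 2227 and 2124 CPM with WT, 1.95-fold lower (log2 −0.96 ± 0.18 SE, edgeR adjusted p = 0.0035). Neither pair of groups overlapped, in a comparison where 59.6% of the names had no overlap and 15.2% were lower by the test. The median of all names was −0.11.

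Set directly against each other, AA gave far more of both strands than the deletion did. In HCT116, AA was higher by a log2 fold change of 3.73 ± 0.14 (SE) for miR-103a-3p (edgeR adjusted p = 6.4e-09) and 3.94 ± 0.17 for miR-107 (edgeR adjusted p = 2.5e-08), where 29.6% of names were higher. In HEK293T the log2 fold changes were 4.05 ± 0.18 (edgeR adjusted p = 3.8e-08) and 3.71 ± 0.20 (edgeR adjusted p = 8.2e-08), where 36.1% of names were higher.

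**Figure D2:**
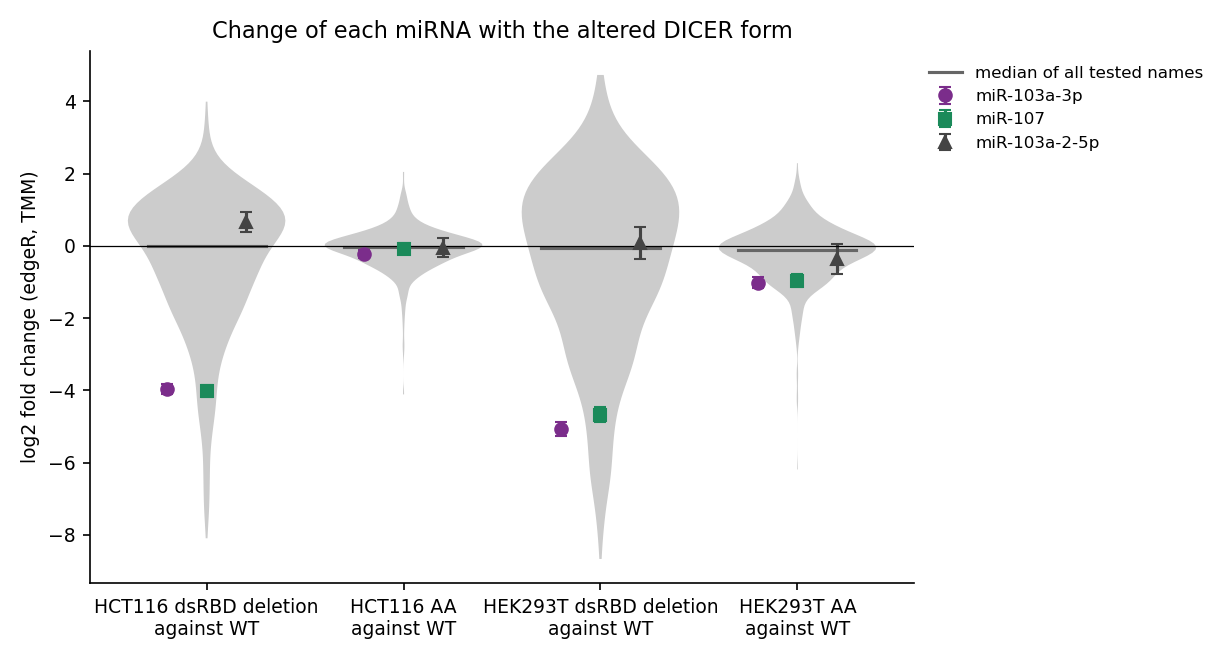
Log2 fold change (edgeR, TMM) of each miRNA in the 4 comparisons with WT; error bars are SE, grey shapes are the spread of all tested names (795 in HCT116, 626 in HEK293T) and grey lines their medians. MiR-103a-3p and miR-107 lie together in the lower tail for the deletion (−3.96 and −4.03 in HCT116, −5.07 and −4.67 in HEK293T), and miR-103a-2-5p lies in the body of the distribution.

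The 5p strand of MIR103A2 did not share this fall relative to the other miRNAs. It was scarce everywhere: in HCT116 it had 68 and 219 reads with the deletion, 226 and 168 with AA, and 249 and 218 with WT. On the CPM scale that was 70.2 and 127 CPM with the deletion, against 62.7 and 65.7 CPM with WT. The log2 fold change for the deletion was 0.66 ± 0.27 (SE, edgeR adjusted p = 0.053), which did not pass the test, and it was 0.04 without deletion replicate 2, the library at 127 CPM. Without deletion replicate 1 (0.85) or WT replicate 2 (0.63) it passed. With all libraries scaled to the spike-ins instead, its log2 fold change was −1.12 (edgeR adjusted p = 5.1e-05), so its direction depended on the scale.

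In HEK293T miR-103a-2-5p had 7 and 13 reads with the deletion, 20 and 5 with AA, and 24 and 24 with WT. As CPM this was 6.18 and 9.96 with the deletion and 7.42 and 3.59 with AA, against 8.51 and 7.02 with WT, and all 3 groups overlapped. The log2 fold change was 0.08 with an interval of −0.89 to 1.05 for the deletion (edgeR adjusted p = 0.882) and −0.37 with an interval of −1.30 to 0.55 for AA (edgeR adjusted p = 0.587). On the spike-in scale that of the deletion was −1.37. With so few reads, only a large difference was detectable. For AA in HCT116 the log2 fold change was −0.06 with an interval of −0.63 to 0.52 (edgeR adjusted p = 0.938), between 74.4 and 49.3 CPM with AA and the WT values above.

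Between the altered forms in HCT116, miR-103a-2-5p was lower with AA than with the deletion (log2 −0.71 ± 0.27 SE, edgeR adjusted p = 0.045), where 26.9% of names were lower. The libraries overlapped, at 74.4 and 49.3 CPM with AA and 70.2 and 127 CPM with the deletion, and the call was lost under most other settings: without deletion replicate 2 the log2 fold change was −0.10, without AA replicate 1 −0.91, without AA replicate 2 −0.36, and on the spike-in scale it was 0.47. In HEK293T the same comparison gave −0.45 with an interval of −1.52 to 0.62 (edgeR adjusted p = 0.415).

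The ratio of the 5p to the 3p strand needs no scaling of libraries. Of the reads of miR-103a-2-5p and miR-103a-3p together, miR-103a-2-5p took 8.26% (95% Wilson interval 6.57% to 10.3%) and 12.2% (10.8% to 13.8%) in the HCT116 deletion libraries. In the HCT116 WT libraries it took 0.507% (0.448% to 0.573%) and 0.468% (0.410% to 0.534%). The shares of the 2 groups were far apart, and the intervals cover counting error only. Tested as an interaction of strand and form in edgeR, the ratio was 23.8-fold higher with the deletion (log2 4.57 ± 0.24 SE, adjusted p = 7.4e-14). Ratios rose in 45.7% of the 256 pairs of names tested in HCT116, most of them the 5p and 3p strands of 1 hairpin, and 24 pairs rose more than this one.

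In HEK293T miR-103a-2-5p took 2.10% (95% Wilson interval 1.02% to 4.27%) and 3.10% (1.82% to 5.22%) in the deletion libraries, against 0.0819% (0.0550% to 0.122%) and 0.0718% (0.0482% to 0.107%) in the WT libraries. The ratio was 35.3-fold higher with the deletion (log2 5.14 ± 0.50 SE, edgeR adjusted p = 4.4e-07), in a comparison where 28.7% of 209 pairs rose and 1 pair rose more. This rests on the 7 and 13 reads of miR-103a-2-5p named above.

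With AA the same share was 0.671% and 0.428% in HCT116 and 0.143% and 0.0757% in HEK293T, overlapping WT in both lines. The log2 change of the ratio was 0.15 with an interval of −0.32 to 0.61 in HCT116 (edgeR adjusted p = 0.783) and 0.62 with an interval of −0.26 to 1.49 in HEK293T (edgeR adjusted p = 0.395). These comparisons called 14.5% and 11% of pairs. Against the deletion, AA lowered the ratio by a log2 change of −4.42 ± 0.24 (SE) in HCT116 (edgeR adjusted p = 2.0e-13) and −4.52 ± 0.50 in HEK293T (edgeR adjusted p = 1.6e-06), where 44.1% and 29.7% of pairs fell. For shares of 2 libraries against 2, the smallest p of a two-sided exact permutation test is 0.333, and the deletion shares reached it in both lines.

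**Figure D3:**
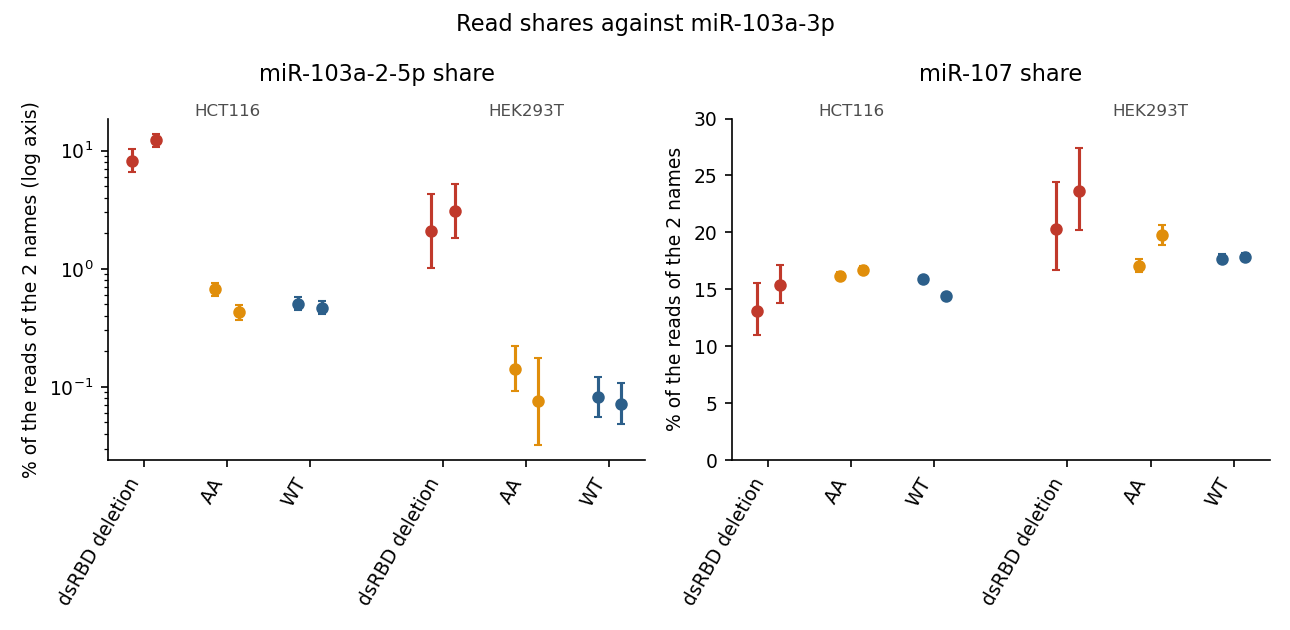
Left, miR-103a-2-5p as a percentage of its reads plus those of miR-103a-3p (log axis); right, miR-107 as a percentage of its reads plus those of miR-103a-3p. Each point is a library with its 95% Wilson interval for counting error; the left share is 2.10% to 12.2% in the deletion libraries and under 1% in the others, whereas the right share stays between 13.1% and 23.6% throughout.

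The share of miR-107 in its joint reads with miR-103a-3p ran from 13.1% to 23.6% over the 12 libraries. It made up 13.1% and 15.4% of their joint reads in HCT116 with the deletion and 16.1% and 16.7% with AA, against 15.9% and 14.4% with WT. In HEK293T it made up 20.3% and 23.6% with the deletion and 17.1% and 19.8% with AA, against 17.7% and 17.9% with WT. The HEK293T deletion libraries were the highest of the 12, and their Wilson intervals were 16.7% to 24.5% and 20.2% to 27.4%. By the ratio test the log2 change for the deletion was −0.09 with an interval of −0.47 to 0.29 in HCT116 (edgeR adjusted p = 0.704) and 0.39 with an interval of −0.15 to 0.92 in HEK293T (edgeR adjusted p = 0.196). For AA it was 0.14 (−0.21 to 0.49) in HCT116 and 0.06 (−0.44 to 0.56) in HEK293T. A change of the ratio within these intervals is not excluded here. Whether the names shared reads was not tested.

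By its share of miRNA reads, miR-103a-3p was highest in HCT116 WT and lowest in the HEK293T deletion. It averaged 1.12% ± 0.0399 in HCT116 WT, 1.08% ± 0.0295 in HCT116 AA, 0.995% ± 0.0765 in HEK293T WT, 0.470% ± 0.0171 in HEK293T AA, 0.104% ± 0.0173 in the HCT116 deletion and 0.0320% ± 0.00171 in the HEK293T deletion (SD, n = 2 each). The first 2 of these groups overlapped, and the nearest libraries of the second and the third were at 1.06% and 1.05%. The other neighbours were apart by more than their spread.

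For miR-107 the shares were 0.215% ± 0.0146 in HEK293T WT, 0.212% ± 0.0119 in HCT116 AA, 0.199% ± 0.00932 in HCT116 WT, 0.106% ± 0.00962 in HEK293T AA, 0.0175% ± 0.00517 in the HCT116 deletion and 0.00905% ± 0.00172 in the HEK293T deletion (SD, n = 2 each). The first 3 groups overlapped each other, and the other neighbours did not. For miR-103a-2-5p the order followed the line: every HCT116 library had at least 0.00473% and every HEK293T library at most 0.00106%.

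Relative to the spike-in RNAs, all 3 names were lower with the deletion, as were all miRNA reads together. These had 63.7 and 64.7 reads per spike-in read with the deletion in HCT116, against 274 and 367 with WT. In HEK293T they had 29.1 and 27.2, against 82.6 and 80.9. In HCT116, miR-103a-3p had 58.3 and 75.0 reads per 1000 spike-in reads with the deletion, against 2977 and 4197 with WT, and miR-107 had 8.80 and 13.7 against 563 and 706. The means were 53.8-fold and 56.4-fold lower. In HEK293T, miR-103a-3p had 8.96 and 9.04 with the deletion, against 867 and 761 with WT, and miR-107 had 2.28 and 2.80 against 186 and 165, with means 90.5-fold and 69.2-fold lower. MiR-103a-2-5p, with 5.25 and 10.5 in HCT116 and 0.192 and 0.289 in HEK293T, was at 45.1% and 38.3% of its WT means. That was a smaller fall than the median of all names with spike-in size factors, log2 −1.78 in HCT116 and −1.53 in HEK293T.

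All miRNA reads together were also lower per spike-in read with AA, at 210 and 206 against 274 and 367 with WT in HCT116. In HEK293T they were at 58.8 and 44.3 against 82.6 and 80.9. With spike-in size factors the median log2 fold change of all names was −0.63 in HCT116 and −0.58 in HEK293T. The HCT116 values that follow lie near that median, and the HEK293T values below it. With AA, miR-103a-3p was at 62.5% of WT in HCT116 (2222 and 2263 reads per 1000 spike-in reads) and 29.9% in HEK293T (284 and 203). MiR-107 was at 69.5% and 30.9%, and miR-103a-2-5p at 70.9% and 44.5%. The last of these rests on 20 and 5 reads, and without HEK293T AA replicate 1 it was 24.4%. In all of these comparisons of the names with WT the groups did not overlap, and each exact two-sided permutation p was 0.333, the smallest possible. For miR-103a-2-5p with AA in HCT116 the gap was narrow, with the nearest libraries at 15.0 (AA) and 15.2 (WT). The groups did not overlap for all miRNA reads together either, and the share of names without overlap on this scale was not counted. For miR-103a-3p with the deletion, each of the 30 spike-ins alone gave a negative log2 change, between −6.41 and −4.88 in HCT116 and between −8.15 and −5.37 in HEK293T. With AA, 29 of the 30 gave a negative value in HCT116, within −2.56 to 0.018, and all 30 did in HEK293T, between −2.93 and −0.90. The sources used here state neither the spike-in amount nor the step of its addition, and the values compare RNA content only under an equal amount per library.

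**Figure D4:**
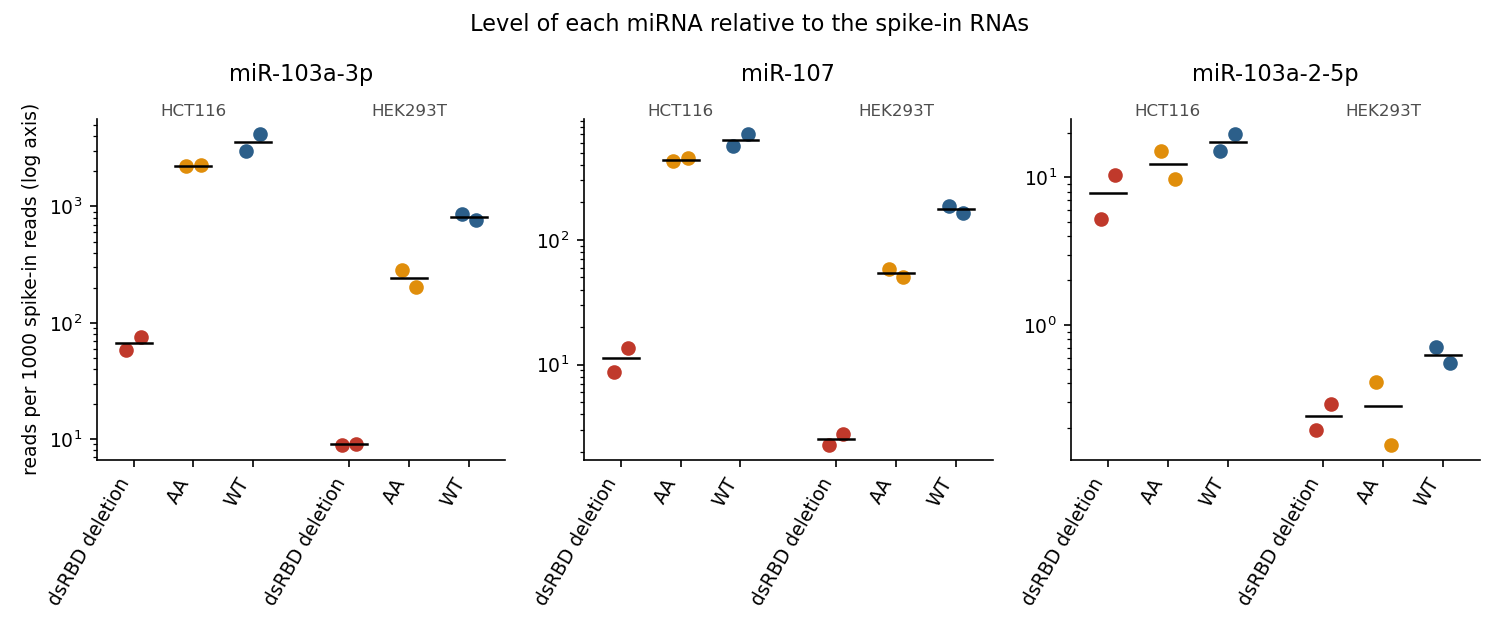
Reads per 1000 spike-in reads (log axis) for miR-103a-3p, miR-107 and miR-103a-2-5p in the 12 libraries; points are libraries and bars the means of 2. On this scale the deletion lies below WT for all 3 names, by 53.8-fold in HCT116 and 90.5-fold in HEK293T for miR-103a-3p, and for miR-103a-2-5p at 45.1% and 38.3% of WT. All miRNA reads together were also lower with the deletion on this scale in both lines.

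The size of the deletion effect was also set against the line. Fitted over all 12 libraries, the fall of miR-103a-3p was larger in HEK293T than in HCT116 by −0.80 ± 0.23 on the log2 scale (SE, edgeR adjusted p = 0.0097), in a test that called 12.4% of 844 names in this direction, with a median over names of 0.34. Scaled to the spike-ins the value was −0.75 (adjusted p = 0.132), and without HEK293T deletion replicate 1 it was −0.65 (adjusted p = 0.096), so that the call was lost both times. For miR-107 the difference was −0.33 with an interval of −0.90 to 0.24 (edgeR adjusted p = 0.397), and for miR-103a-2-5p −0.25 with an interval of −1.38 to 0.88 (edgeR adjusted p = 0.777). Line differences in the AA effect were −0.68 ± 0.23 (SE, interval −1.15 to −0.20) for miR-103a-3p and −0.76 ± 0.26 (interval −1.30 to −0.23) for miR-107. These intervals are not adjusted over names, and the edgeR adjusted p was 0.120 for each. For miR-103a-2-5p the difference was −0.19 ± 0.52. None passed the test, which called 3.91% of names. With TMM scaling, the larger AA effect in HEK293T thus did not pass the adjusted test of the difference between the lines. That result depended on the scaling, as given in the closing section.

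Between the lines with WT DICER and TMM scaling, the 2 kept strands differed less than the 5p strand. MiR-103a-2-5p was 8.58-fold lower in HEK293T WT than in HCT116 WT (log2 −3.10 ± 0.32 SE, edgeR adjusted p = 1.3e-08), where 41.2% of 844 names were lower. MiR-103a-3p was lower by a log2 fold change of −0.44 ± 0.16 (SE, edgeR adjusted p = 0.019), near the median of all names at −0.39, and the call was lost without HCT116 WT replicate 2 (−0.24). MiR-107 had −0.16 with an interval of −0.54 to 0.22 (edgeR adjusted p = 0.433). On the spike-in scale, where the median of all names was −2.02, both were lower in HEK293T WT, miR-103a-3p by a log2 fold change of −2.12 (edgeR adjusted p = 9.9e-12) and miR-107 by −1.82 (edgeR adjusted p = 4.1e-09). The labels do not say whether the lines were prepared together, so a part of library preparation cannot be told apart from the line in this comparison.

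MiR-103a-3p and miR-107 belong to the wider miR-15/miR-107 group, whose members share AGCAGC at the start of the 5′ end and are known for targeting cell cycle and BCL2 family mRNAs. The most abundant of the others are shown with AGCAGC in capitals, which begins at base 2 in them and at base 1 in miR-103a-3p and miR-107.
miR-16-5p: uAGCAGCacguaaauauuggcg
miR-15b-5p: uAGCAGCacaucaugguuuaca
miR-15a-5p: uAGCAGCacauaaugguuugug
miR-195-5p: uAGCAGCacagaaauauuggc
The motif AGCAGC began at base 1 or 2 in 10 of the 1735 names (0.576%), searched on the mature strand only. These were miR-103a-3p, miR-107, the 7 group members tested below, and miR-6838-5p, which was not on the list of the group used here. Unlike miR-103a-3p and miR-107, the 4 miRNAs shown above and the rest of the 7 are 5p strands. The arm therefore cannot be told apart from other differences between these 7 and miR-103a-3p or miR-107. The 8 other members of the group were looked up, and 7 were listed and tested in both lines. Of these, 2 were higher and 2 lower with the deletion in HCT116, with a median of 0.28, against 28.1% higher and 34.1% lower among all names and a median of −0.01. In HEK293T, 4 were higher and 3 lower, with a median of 0.70, against 35.9% higher and 39.6% lower among all names and a median of −0.07.

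In neither line did another tested member of this group, all of them 5p strands, fall as far as miR-103a-3p or miR-107. The lowest was miR-424-5p in HCT116 (log2 −1.02 ± 0.17 SE) and miR-15a-5p in HEK293T (−2.75 ± 0.17 SE). MiR-16-5p, the most abundant, averaged 12446 ± 23.2 CPM with the deletion and 18858 ± 910 CPM with WT in HCT116 (SD, n = 2 each; log2 −0.60 ± 0.10 SE, edgeR adjusted p = 5.4e-04), and in HEK293T its log2 fold change was −1.19 ± 0.16 (edgeR adjusted p = 4.2e-05). MiR-15b-5p had 0.08 ± 0.12 in HCT116 (edgeR adjusted p = 0.579) and rose in HEK293T by 2.09 ± 0.16 (edgeR adjusted p = 7.8e-07). MiR-15a-5p had 0.28 ± 0.11 in HCT116 (edgeR adjusted p = 0.052). MiR-195-5p rose by 0.52 ± 0.15 in HCT116 (edgeR adjusted p = 0.012) and 1.89 ± 0.18 in HEK293T (edgeR adjusted p = 4.0e-06).

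These directions hold relative to the other miRNAs. On the spike-in scale, where the median of all names moved to −1.78 in HCT116 and −1.53 in HEK293T, all 7 were lower with the deletion in HCT116, as were 75.2% of all names (598 of 795). In HEK293T 4 were lower and 1, miR-15b-5p, higher, where 61.8% of all names were lower and 9.58% higher. With library totals as the only scaling, 5 were higher and 1 lower in HCT116, where 39.9% of all names were higher and 24.9% lower. On the spike-in scale miR-103a-3p and miR-107 had −5.76 and −5.81 in HCT116 and −6.53 and −6.13 in HEK293T, again far below those medians. With AA and TMM scaling, none of the 7 passed the test in HCT116 (edgeR; 1 was lower at an unadjusted p under 0.05, and DESeq2 called 0), where 7.42% of all names did. MiR-15a-5p was the 1 lower name in HEK293T (log2 −0.82 ± 0.16 SE, edgeR adjusted p = 0.0050), where 15.2% of all names were lower. With spike-in scaling 4 of the 7 were lower with AA in each line, where 34% of all names were lower in HCT116 and 30.2% in HEK293T.

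**Figure D5:**
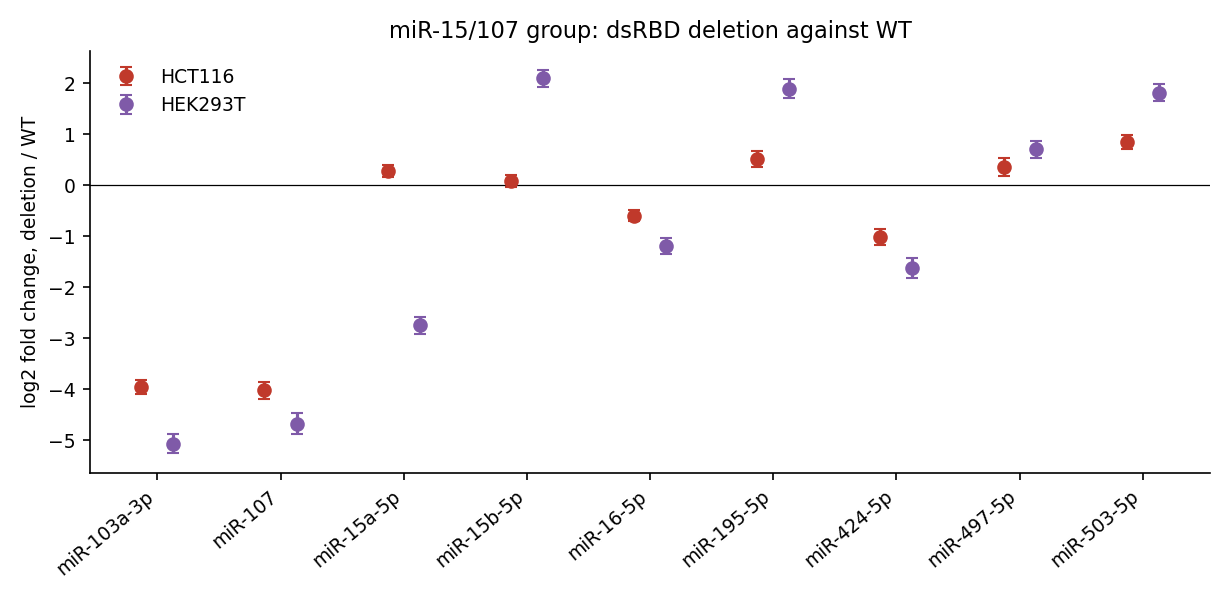
Log2 fold change (edgeR, TMM; error bars SE) of miR-103a-3p, miR-107 and the 7 tested members of the miR-15/miR-107 group for the dsRBD deletion over WT in HCT116 (red) and HEK293T (purple). MiR-103a-3p and miR-107 lie at −3.96 to −5.07, and the others between −2.75 and 2.09.

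A list of 26 miRNAs from introns of other protein-coding genes, 25 of them tested in each line, was set beside the PANK miRNAs. It was chosen with earlier results of these data known and mixes 5p and 3p strands. For some of its miRNAs the named host holds only 1 of their loci. Some share a host, such as miR-93-5p, miR-25-3p and miR-106b-5p in MCM7, so the names counted are not independent. MiR-15b-5p and miR-16-5p are also in the miR-15/miR-107 group, and miR-25-3p, miR-128-3p and miR-454-3p are among the most alike names below. With the deletion 20 were lower and 1 higher in HCT116, with a median of −1.47, and 19 were lower and 4 higher in HEK293T, with a median of −3.47. Among all names 34.1% and 39.6% were lower in those comparisons. In HCT116 the 3p names of the list lay between −5.50 and −2.06, and its 5p names between −1.73 and 0.71. In HEK293T the 3p names lay between −5.51 and −1.64, and the 5p names between −6.42 and 3.46. The parts of the arm and of the intron in these counts were not tested. With AA and TMM scaling, 3 were lower in HCT116 and 6 in HEK293T by edgeR, where 6.16% and 15.2% of all names were lower, and 0 were higher in either line. At an unadjusted p under 0.05, 0 were higher in HCT116 and 2 in HEK293T, and DESeq2 called 0 and 1 higher. With DESeq2 size factors in edgeR, 2 were higher in HEK293T (miR-149-5p and miR-30e-5p). With library totals as the only scaling, 1 was lower in HCT116. Scaled to the spike-ins, 12 were lower with AA in HCT116 and 10 in HEK293T, where 34% and 30.2% of all names were lower. MiR-301a-3p in HCT116 (−5.50) and miR-93-5p in HEK293T (−6.42) had the lowest log2 fold changes of the list, both below those of miR-103a-3p and miR-107. On the spike-in scale the counts for the deletion were 25 lower in HCT116, and 21 lower and 2 higher in HEK293T, against the shares of all names on that scale given above (75.2% lower in HCT116, and 61.8% lower and 9.58% higher in HEK293T).

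Over the 12 libraries, the name whose pattern was most like miR-103a-3p was miR-107. Likeness was the root mean square difference of log2 CPM, each name centred on its mean in the line, over 190 other names with a mean of at least 100 CPM in both lines. The difference was 0.17 for miR-107, 0.26 for miR-222-3p, 0.27 for miR-128-3p and 0.28 for miR-25-3p. For miR-107 it was 0.17 for miR-103a-3p, 0.25 for miR-128-3p, 0.34 for miR-454-3p and 0.37 for miR-25-3p. All these named neighbours are 3p strands, as were 38.7% of the names compared, and all points share their libraries.

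MiR-222-3p, known for targeting the cell cycle inhibitor CDKN1B, had a log2 fold change of −4.24 ± 0.14 with the deletion in HCT116 and −5.67 ± 0.20 in HEK293T, and was lower with AA in HCT116 (−0.72 ± 0.13 SE, edgeR adjusted p = 0.0058) and in HEK293T (−1.31 ± 0.16 SE, edgeR adjusted p = 3.4e-04). MiR-128-3p, a miRNA abundant in brain, had −3.44 ± 0.16 and −4.74 ± 0.22 with the deletion, and with AA 0.0022 ± 0.14 in HCT116 and −1.26 ± 0.18 in HEK293T. MiR-25-3p, from an intron of MCM7, had −4.21 ± 0.13 and −5.13 ± 0.22 with the deletion. With AA it was lower in HCT116 (−0.57 ± 0.11 SE, edgeR adjusted p = 0.013), and in HEK293T it had −0.37 ± 0.18 (edgeR adjusted p = 0.181). MiR-454-3p had −4.09 ± 0.20 and −4.42 ± 0.26 with the deletion, and with AA −0.33 ± 0.16 in HCT116 (edgeR adjusted p = 0.285) and −0.06 ± 0.21 in HEK293T (edgeR adjusted p = 0.901). Of these neighbours, miR-25-3p and miR-454-3p thus did not pass the AA test in HEK293T, which miR-103a-3p and miR-107 passed. That difference between names was not tested.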

How the data were processed

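AQ-seq libraries were made from 100 µg of TRIzol-extracted RNA and sequenced on a NovaSeq, per the labels' protocols. The authors deposited raw read counts per miRNA name and spike-in, 1 table per library. The submitters' processing notes name cutadapt, BWA and bedtools and the builds hg38 and mm10, with roles and versions not given in the sources used here. Whether replicates are separate cultures is not stated, so p-values measure the spread between libraries.

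Spike-ins entered neither library sizes nor tests. Per line, names passing filterByExpr (minimum count 10) were TMM-scaled and tested over 6 libraries (12 for lines) with edgeR 4.0.16 (R 4.3.3) quasi-likelihood F tests, Benjamini-Hochberg adjusted over all names, threshold 0.05, two-sided. Ratios were tested per pair with at least 10 reads of each name in 2 libraries, with library as a block, and were adjusted over all pairs. There were 9 comparisons of levels and 6 of ratios. Tests were tried on simulated counts. SE is the log2 change over the square root of F. Hairpins were folded with ViennaRNA 2.7.2. DESeq2 1.42.0 was an alternative. Members and lists were chosen with earlier results of these data known. Named were the members, the 4 most abundant miR-15/miR-107 names by mean CPM, list extremes (named after their values were seen), and the 4 nearest names by likeness (prior count 2).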

Additional observations from a re-analysis of the deposited data

Results flagged for a closer look

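The effect of the dsRBD deletion on miR-103a-3p differed between the lines by the test of the difference itself. The log2 fold change over all 12 libraries was lower in HEK293T than in HCT116 by −0.80 ± 0.23 (SE, edgeR adjusted p = 0.0097), with log2 fold changes of −5.07 in HEK293T and −3.96 in HCT116 in the separate fits. In this test 12.4% of the names were called in the same direction. The call was lost on the spike-in scale (−0.75, edgeR adjusted p = 0.132) and without HEK293T deletion replicate 1 (−0.65, edgeR adjusted p = 0.096). Both deletion libraries of each line were below both WT libraries, where 89% of names in HEK293T and 82.5% in HCT116 had groups that did not overlap. The labels do not say whether the libraries of both lines were prepared together. A part of library preparation therefore cannot be told apart from that of the line.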

How the results depend on the processing

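The falls of miR-103a-3p and miR-107 with the deletion, their levels with AA against the deletion and their falls with AA in HEK293T kept direction and call in all 110 refits, and the called ratios of miR-103a-2-5p to miR-103a-3p in all of theirs. Scaled to the spike-ins, miR-103a-2-5p turned to −1.12 (deletion, HCT116), 0.47 (AA against deletion, HCT116), −1.37 (deletion, HEK293T) and 0.55 (AA against deletion, HEK293T), miR-107 between the WT lines reached −1.82, AA against WT in HCT116 called 272 names in place of 59, with −0.84, −0.69 and −0.66 for miR-103a-3p, miR-107 and miR-103a-2-5p now called, the line difference for miR-103a-3p was −0.75, and the line difference in AA called 21 names in place of 33. With library totals, miR-103a-2-5p was called at 1.19 (deletion, HCT116), AA against WT in HCT116 turned to 0.094 (miR-107) and 0.12 (miR-103a-2-5p), the WT lines gave −0.17 (miR-103a-3p, not called) and 0.11 (miR-107), the line difference in the deletion was called for miR-107 (−1.07), and that in AA called 78 names, with −1.03 and −1.11 for miR-103a-3p and miR-107.

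MiR-103a-2-5p in AA against the deletion in HCT116 lost its call with DESeq2 size factors (−0.63), the DESeq2 test (−0.61), no filter (−0.48), only the compared groups (−0.63) and the replicate block (−0.70). Without a filter it was −0.24 for the deletion in HEK293T, and miR-103a-3p between the WT lines lost its call (−0.40), as with the replicate block (−0.38). The causes were not tested. Equal replicate numbers did not pair the libraries (correlations of their deviations −0.10 to 0.15); the block gave 478 names in place of 494 for the deletion in HCT116, 480 in place of 473 in HEK293T, 46 in place of 59 for AA in HCT116 and 155 in place of 134 in HEK293T. Crossed pairing of AA with WT in HCT116, chosen after seeing the data, gave 78 names.

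Leaving out 1 library, miR-103a-2-5p ranged over 0.037 to 0.85 (deletion, HCT116), −0.37 to 0.20 (AA, HCT116), −0.91 to −0.10 (AA against deletion, HCT116), −0.43 to 0.37 (deletion, HEK293T), −1.15 to 0.0048 (AA, HEK293T), −1.16 to 0.14 (AA against deletion, HEK293T), −0.58 to 0.19 and −0.92 to 0.18 (line differences in deletion and AA). MiR-103a-3p ranged over −0.57 to −0.24 between the WT lines, −1.07 to −0.65 and −0.94 to −0.56 for the line differences, the AA value called without HCT116 WT replicate 2. Ratios of miR-107 to miR-103a-3p ranged over −0.24 to 0.032 (deletion, HCT116) and −0.069 to 0.19 (AA, HEK293T), those of miR-103a-2-5p over −0.19 to 0.47 (AA, HCT116) and −0.0042 to 0.90 (AA, HEK293T). AA against WT called 10 to 73 names in HCT116 (10 without AA replicate 1, 23 without AA replicate 2) and 54 to 136 in HEK293T (54 without AA replicate 2, 88 without WT replicate 1). The 5 to 24 reads of miR-103a-2-5p in HEK293T limit its values.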
